A study of Danio rerio with 9 samples.

Results

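Ferritins, transferrin, ceruloplasmin and the iron exporter were examined in whole zebrafish embryos exposed to oxygenated polycyclic aromatic hydrocarbons. The gene set was chosen by symbol and lists 10 genes: the ferritin heavy chain genes fth1a, fth1b, fthl27, fthl28, fthl30 and fthl31, the transferrin gene tfa, the ceruloplasmin gene CP, the transferrin receptor gene tfr1a and the ferroportin gene slc40a1. Of these, 9 were matched among the 32434 genes of the count table, fth1b through the symbol FTH1 (ENSDARG00000007975), and tfr1a was not analysed here. Of the 9 matched genes, 8 had enough reads to be tested.

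All embryos were of the wild-type 5D line and were 48 hours post fertilization (hpf) when RNA was taken. In 2 mL of medium, 20 embryos shared a vial from 6 to 48 hpf, and each vial gave 1 library of polyadenylated RNA. BaAQ denotes 10 µM of the quinone benzanthracene-7,12-dione, BEZO denotes 10 µM of the ketone 1,9-benz-10-anthrone, and Control denotes the vehicle alone; all 3 groups carried 1% DMSO. Each group held 3 vials, described in the labels as independent. Group spawns of more than a single day supplied the embryos, and no vial is tied to a day. The exposure temperature is given as 37 °C, which is high for zebrafish and could not be checked. Libraries held 8106613 to 11351295 counted reads in BaAQ, 9656592 to 11813335 in BEZO and 9620666 to 14435626 in Control. Lists of red blood cell, myeloid cell, and liver and yolk syncytial layer markers held 19, 12 and 22 symbols. Of these, 6, 2 and 3 had no match, among them hbbe1.1, mpx and rbp4. The rest matched 14, 17 and 19 genes, of which 0, 0 and 0 lacked reads in the whole series. A single read in any library sufficed for this, and TTR of the liver list had no reads in BEZO. In RNA from whole embryos, fewer cells of a type and less RNA per cell cannot be told apart.

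Iron moves through the vertebrate body as a handed-on cargo. Transferrin carries it in the blood and is taken up by receptors on cells, ferritin stores the surplus inside a hollow protein shell, and ferroportin lets iron out of the cell, where ceruloplasmin oxidises it for loading onto transferrin. Ferritin production is known for control by iron at translation and by oxidative stress at transcription, and in the zebrafish embryo ferroportin is known for passing yolk iron to the blood.

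Levels are given as CPM, the reads of a gene divided by its library's total and scaled to a common size, and log2 fold changes carry the standard error (SE) of the fit. The test was edgeR's quasi-likelihood test with Benjamini-Hochberg adjustment over all 18860 tested genes, and passing means an adjusted p under 0.05. In BaAQ against Control, 5 of the 8 tested iron genes were higher and 2 lower, where 10.2% of all tested genes passed, 4.82% higher and 5.41% lower. In BEZO against Control, 4 were higher and 1 lower, where 6.44% of all tested genes passed, 3.09% higher and 3.35% lower. In BaAQ against BEZO, 1 was higher and 2 were lower, where 4.84% passed, 2.56% higher and 2.27% lower. The median log2 fold change of the 8 genes was 0.29 (0.00 over all tested genes) in BaAQ against Control, 0.32 (0.00) in BEZO against Control and 0.10 (0.00) in BaAQ against BEZO. These genes were listed with results of the same libraries known, so the counts are descriptions. Both exposures were set against the same Control libraries, so their changes are not independent of each other.

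**Figure D1:**
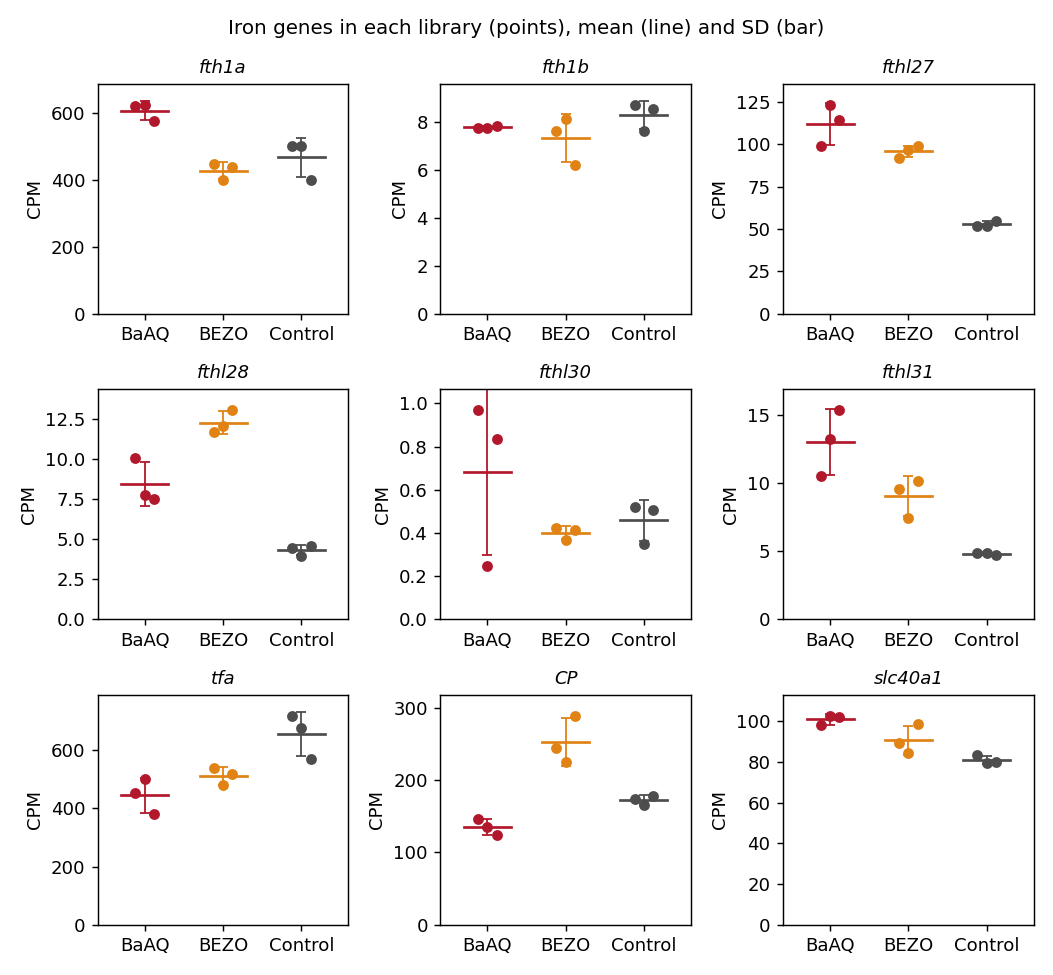
Level of each iron gene in CPM (y axes, each starting at 0) in the 3 BaAQ, 3 BEZO and 3 Control libraries; points are libraries, lines group means and bars the SD. The BaAQ and BEZO points of fthl27, fthl28 and fthl31 lie above all Control points, those of tfa lie below, and CP lies above Control in BEZO and below it in BaAQ.

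Of the 4 fthl storage genes, which encode ferritin heavy chain-like subunits, 3 were higher in both exposures, and fthl30 had too few reads for the main filter. Of all tested genes, 4.82% were higher in BaAQ than in Control and 3.09% in BEZO. The share higher in both was not counted, so the 3 genes are a description. In the RefSeq annotation of a newer assembly (GRCz12tu), fthl27, fthl28, fthl30 and fthl31 lie next to one another with no other annotated gene between them. Copies of ferritin may share reads, so the value of a single copy is uncertain, and the summed reads of the copies are given below.

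The gene fthl27 (ENSDARG00000031776) was at 98.8, 123.5 and 114 CPM in the BaAQ libraries, 92.2, 96.6 and 98.9 CPM in the BEZO libraries and 52.0, 51.6 and 55.0 CPM in the Control libraries. Every exposed library stood above every Control library, while BaAQ and BEZO overlapped. It was 2.04-fold higher in BaAQ than in Control (log2 1.03 ± 0.08, SE, adjusted p = 1.84e-08, edgeR). In BEZO it was 1.77-fold higher than in Control (log2 0.82 ± 0.08, adjusted p = 6.50e-07, edgeR).

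The gene fthl28 (ENSDARG00000076221) had 10.04, 7.77 and 7.51 CPM in BaAQ, 11.7, 12.1 and 13.1 CPM in BEZO, and 4.47, 3.95 and 4.55 CPM in Control. The 3 groups did not overlap, with BEZO the highest and Control the lowest. Against Control it rose by 0.93 ± 0.16 on the log2 scale in BaAQ (adjusted p = 0.00056, edgeR) and by 1.47 ± 0.15, or 2.77-fold, in BEZO (adjusted p = 1.87e-06, edgeR).

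For fthl31 (ENSDARG00000094210) the order of the exposures was the other way round. It had 10.5, 13.2 and 15.3 CPM in BaAQ, 9.57, 7.41 and 10.2 CPM in BEZO, and 4.89, 4.85 and 4.70 CPM in Control. The 3 groups again did not overlap, although the highest BEZO and the lowest BaAQ library were close. Against Control, fthl31 rose 2.59-fold in BaAQ (log2 1.37 ± 0.16, adjusted p = 1.01e-05, edgeR). It rose 1.83-fold in BEZO (log2 0.87 ± 0.17, adjusted p = 0.00261, edgeR).

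Reads of the neighbouring copy fthl30 (ENSDARG00000077360) did not pass the filter on low counts, with 11, 2 and 8 reads in the BaAQ libraries, 5, 4 and 4 in the BEZO libraries and 5, 5 and 7 in the Control libraries. These counts, from 2 to 11 reads, are low, where a floor of 3 reads is used for a gene without reads. Which difference of fthl30 could have been detected at this depth was not worked out. When genes of at least 1 read were kept, its log2 fold change was 0.59 in BaAQ against Control (adjusted p = 0.667, edgeR) and -0.20 in BEZO against Control (adjusted p = 0.939, edgeR).

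The classical heavy chain gene fth1a (ENSDARG00000015551), which encodes a subunit that oxidises iron as it enters the shell, moved in BaAQ. It was at 622, 626 and 576 CPM in BaAQ, 448, 399 and 438 CPM in BEZO, and 503, 501 and 399.6 CPM in Control. BaAQ stood above all other libraries, BEZO lay within the range of Control apart from its lowest library, and the third Control library stood below the other Control libraries. The gene was higher in BaAQ than in Control by 0.32 ± 0.08 on the log2 scale (adjusted p = 0.0131, edgeR), and in BEZO its log2 fold change was -0.17 ± 0.08 (adjusted p = 0.268, edgeR). Control 3 decides both calls: without it, the BaAQ difference was 0.21 with adjusted p = 0.086, and fth1a was lower in BEZO by -0.28 on the log2 scale with adjusted p = 0.0257 (edgeR).

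The second heavy chain gene, fth1b, did not pass in any comparison. Its levels were 7.75, 7.77 and 7.82 CPM in BaAQ, 7.62, 8.15 and 6.21 CPM in BEZO, and 8.73, 7.62 and 8.53 CPM in Control, with overlap between all groups. The 95% interval of its log2 fold change ran from -0.44 to 0.16 in BaAQ against Control and from -0.50 to 0.09 in BEZO against Control.

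Taking the reads of the 6 ferritin genes as a single row removes the question of how counted reads were divided among these 6. Reads that went to copies outside the gene set, such as fthl29, annotated next to fthl31, or that were not counted are not in the sum. The sum came to 750.3 ± 28.5 CPM in BaAQ, 553.5 ± 25.6 CPM in BEZO and 538.9 ± 57.2 CPM in Control (SD, n = 3 each). It was 1.34-fold higher in BaAQ than in Control (log2 0.42 ± 0.07, adjusted p = 0.000702, edgeR). In BEZO the difference from Control was 0.00 ± 0.07 on the log2 scale, with a 95% interval from -0.15 to 0.15. Most of these reads belong to fth1a. The sum of the 4 fthl genes alone was 134.3 ± 12.6 CPM in BaAQ, 117.6 ± 4.44 CPM in BEZO and 62.4 ± 2.04 CPM in Control. That sum was higher by 1.05 ± 0.07 in BaAQ (adjusted p = 5.13e-09) and by 0.88 ± 0.07 in BEZO (adjusted p = 9.08e-08, edgeR).

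The make-up of the ferritin reads was also compared. As a share of reads on the 6 genes, not scaled for transcript length, fthl27 took 13.2, 15.9 and 15.8% in BaAQ, 16.2, 18.4 and 17.5% in BEZO and 9.06, 9.06 and 11.6% in Control. The share of fth1a was 79.8 to 82.9% in BaAQ, 76.2 to 78.7% in BEZO and 84.5 to 88.0% in Control. Neither share overlapped between exposed and Control libraries, and this was not put to a separate test.

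**Figure D2:**
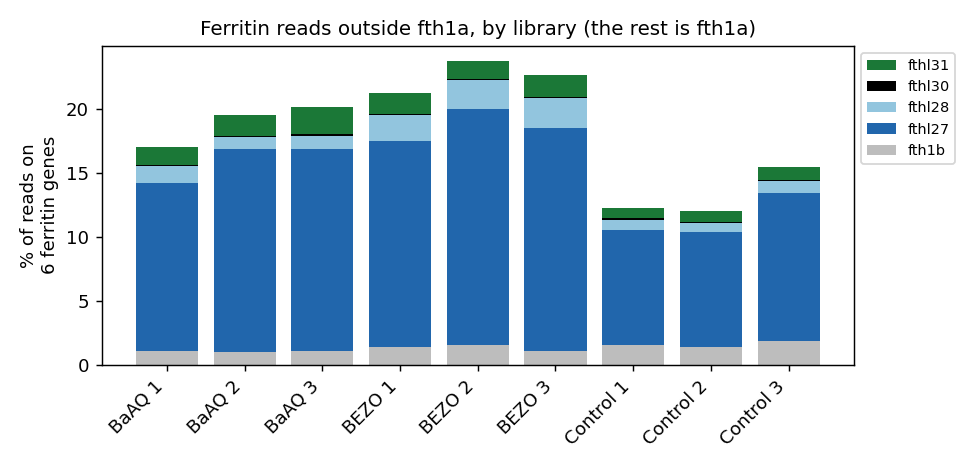
Share of the reads on 6 ferritin genes (y axis, percent) that fell outside fth1a, as stacked bars for each library; colours mark the gene. In BEZO the fthl27 band spans 16.2 to 18.4% of ferritin reads and in Control 9.06 to 11.6%.

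Among the genes of iron transport, tfa was lower in both exposures and CP differed in direction between them. Transferrin, from tfa (ENSDARG00000016771), is known as a liver product that binds iron in the blood. Which tissue of these whole embryos gave the tfa reads was not tested. Levels of tfa were 452, 502 and 382 CPM in BaAQ, 538, 479 and 519 CPM in BEZO, and 719.9, 676 and 571 CPM in Control. All exposed libraries lay below all Control libraries, and BaAQ and BEZO overlapped. The fall against Control was -0.61 ± 0.09 on the log2 scale in BaAQ (adjusted p = 0.000135, edgeR). In BEZO it was -0.39 ± 0.09 (adjusted p = 0.0101, edgeR), a call that ended without Control 1 (adjusted p = 0.0684) or without Control 2 (adjusted p = 0.0565).

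Ceruloplasmin, a copper-bearing ferroxidase known as a secreted liver product, moved in opposite directions. The tissue that gave the CP reads was not tested either. CP (ENSDARG00000010312) was at 146, 135 and 124 CPM in BaAQ, 244, 225 and 289 CPM in BEZO, and 174, 166 and 178 CPM in Control. The 3 groups did not overlap, with BaAQ below and BEZO above Control. Against Control, CP fell by 0.41 ± 0.08 on the log2 scale in BaAQ (adjusted p = 0.00181, edgeR) and rose by 0.51 ± 0.08, or 1.43-fold, in BEZO (adjusted p = 0.000227, edgeR).

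The exporter gene slc40a1 (ENSDARG00000000241, listed as SLC40A1), which encodes ferroportin, had 98.0, 103 and 102 CPM in BaAQ, 89.3, 84.2 and 98.5 CPM in BEZO, and 83.3, 79.5 and 80.1 CPM in Control. In CPM all exposed libraries lay above all Control libraries, with a wider spread in BEZO. The lowest BEZO library, at 84.2 CPM, was close to the highest Control library, at 83.3 CPM. In BaAQ it was higher than in Control by 0.27 ± 0.07 on the log2 scale (adjusted p = 0.0129, edgeR), a call that ended without Control 3 (adjusted p = 0.0675). In BEZO its log2 fold change was 0.13 ± 0.07 (adjusted p = 0.317, edgeR).

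Levels of other gene lists moved beside these values. The summed level of 19 genes of liver and yolk syncytial layer, which include secreted apolipoproteins but neither tfa nor CP, was 11437 to 12496 CPM in BaAQ, 14711 to 16301 CPM in BEZO and 15233 to 15725 CPM in Control. Of 17 tested members, 9 were lower in BaAQ than in Control and none higher, where 5.41% of all tested genes were lower, with a median log2 fold change of -0.32. In BEZO 3 were lower and none higher, where 3.35% of all tested genes were lower, with a median of 0.02. Among them APOB (ENSDARG00000042780), an apolipoprotein of lipid export, was lower by -0.96 ± 0.07 in BaAQ and by -0.49 ± 0.07 in BEZO on the log2 scale. The related gene apobb.1 was lower in BaAQ by -0.58 ± 0.07, and in BEZO it was at 0.05 ± 0.07 (adjusted p = 0.777, edgeR). It is the largest part of the summed level, with a mean of 5554 CPM in BaAQ, 8485 CPM in BEZO and 7991 CPM in Control. In BaAQ against BEZO, 7 of the 17 tested members were lower and none higher, where 2.27% of all tested genes were lower. Their median log2 fold change was -0.355. The part of liver or yolk cell number in the values of tfa and CP was not tested.

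Myeloid genes, which include those of macrophages that recycle iron, summed to 86 to 98 CPM in BaAQ, 114 to 115 CPM in BEZO and 87 to 95 CPM in Control over 17 genes. Of 13 tested, 1 was higher and 3 lower in BaAQ than in Control, where 4.82% of all tested genes were higher and 5.41% lower, with a median log2 fold change of -0.30. In BEZO 1 was higher, or 7.69% where 6.44% of all tested genes passed, with a median of 0.14. The one that was higher in both was CEBPB, a transcription factor gene of myeloid and other cells, which alone averaged 29.8 CPM in BaAQ, 35.8 CPM in BEZO and 20.0 CPM in Control of the summed level. The 3 lower in BaAQ were lyz (log2 -0.52 ± 0.13), MFAP4 (ENSDARG00000088745, -0.49 ± 0.14) and LCP1 (-0.92 ± 0.25). The other tested MFAP4 genes did not pass. The summed level therefore joins a rise of CEBPB with falls of other genes in BaAQ. Red blood cells are the main users of iron, and 14 of their genes summed to 1080 to 1480 CPM in BaAQ, 698 to 824 CPM in BEZO and 1135 to 1163 CPM in Control. Of that summed level, the globin gene hbae3 alone averaged 730 CPM in BaAQ, 378 CPM in BEZO and 678 CPM in Control. It did not pass in BaAQ against Control (adjusted p = 0.838, edgeR). Of the 14 genes, 5 were higher in BaAQ than in Control and 0 lower, where 4.82% of all tested genes were higher. These were nt5c2l1 (log2 1.69 ± 0.16), hbbe3 (0.77 ± 0.12), alas2 (0.60 ± 0.11), epb41b (0.40 ± 0.12) and SLC4A1 (ENSDARG00000012881, 0.32 ± 0.10). In BEZO 4 were lower and 1 higher, where 3.35% of all tested genes were lower and 3.09% higher. The lower ones were hbae3, alas2, epb41b and the same SLC4A1 gene, and the higher one was hbbe3. Against BEZO, 7 of the 14 were higher in BaAQ and 0 lower, where 2.56% of all tested genes were higher. The median was 0.42 on the log2 scale. The part of these cells in the values of the iron genes was not tested.

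A list of 26 antioxidant and NRF2 pathway genes summed to 1115 to 1137 CPM in BaAQ, 899 to 908 CPM in BEZO and 777 to 870 CPM in Control. It was drawn from 30 symbols, of which 6 had no match, among them txnrd1, gstp1 and osgin1. HMOX1 is counted with the heme handling genes below. NRF2 is a transcription factor whose known targets in mammals include ferritin heavy chain. Beside antioxidant genes, the list holds the genes of NRF2 itself (NFE2L2, nfe2l2b) and of its regulator KEAP1 (keap1a, KEAP1). Of these, keap1a, KEAP1 and nfe2l2b are among the genes counted as higher in both exposures. Of 25 tested genes of the list, 13 were higher in BaAQ than in Control and none lower, where 4.82% of all tested genes were higher. In BEZO 8 were higher and 2 lower, where 3.09% were higher and 3.35% lower. The glutathione reductase gene GSR rose by 1.87 ± 0.09 in BaAQ and by 1.39 ± 0.09 in BEZO, and the peroxiredoxin gene prdx1 (ENSDARG00000058734) by 2.02 ± 0.10 in BaAQ and 1.25 ± 0.10 in BEZO, all on the log2 scale. A second gene of that symbol, PRDX1 (ENSDARG00000025350), was at -0.23 ± 0.08 in BaAQ (adjusted p = 0.0616, edgeR) and -0.20 ± 0.08 in BEZO (adjusted p = 0.144, edgeR). These lists, too, were made with earlier results of these libraries known, and whether NRF2 acts on the fthl genes was not tested.

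**Figure D3:**
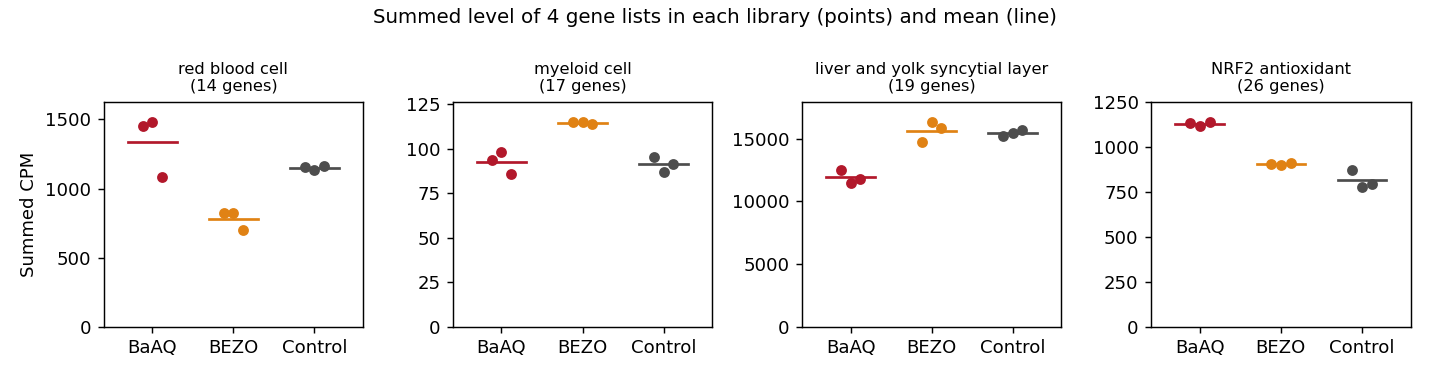
Summed level in CPM (y axes, each starting at 0) of 4 gene lists in the 3 BaAQ, 3 BEZO and 3 Control libraries; points are libraries and lines group means. The antioxidant list is highest in BaAQ at 1115 to 1137 CPM, the red blood cell list is lowest in BEZO at 698 to 824 CPM, and the liver and yolk list is lowest in BaAQ at 11437 to 12496 CPM.

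Compared directly, the quinone and the ketone differed in 3 of the 8 genes, where 4.84% of all tested genes passed. The p-values are adjusted over all genes for this single pair of compounds at the same dose and time. CP was lower in BaAQ than in BEZO by -0.92 ± 0.08 on the log2 scale, a fold of 0.53 (adjusted p = 1.87e-07, edgeR). The gene fth1a was 1.40-fold higher in BaAQ than in BEZO (log2 0.49 ± 0.08, adjusted p = 0.000727, edgeR). The summed ferritin reads were 1.34-fold higher in BaAQ than in BEZO (adjusted p = 0.0013, edgeR).

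For fthl28 the BaAQ level was lower than the BEZO level by -0.54 ± 0.14 on the log2 scale (adjusted p = 0.0292, edgeR). This call ended with DESeq2 (adjusted p = 0.0867) and without BaAQ 2 (0.103), BaAQ 3 (0.119), BEZO 2 (0.0856) or BEZO 3 (0.104). For fthl31 the difference was 0.50 ± 0.15 with a 95% interval from 0.18 to 0.82 (adjusted p = 0.0655, edgeR), and it passed without BaAQ 1, at 0.65 with adjusted p = 0.0191.

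For the remaining genes the 95% interval of the BaAQ over BEZO log2 fold change was 0.05 to 0.36 for fthl27, -0.41 to -0.03 for tfa, 0.00 to 0.28 for slc40a1 and -0.25 to 0.37 for fth1b. None of these 4 passed after adjustment, which does not show that the compounds act alike on them. Without BaAQ 1, fthl27 was higher in BaAQ than in BEZO by 0.29 (adjusted p = 0.0291, edgeR). The fthl sum differed by 0.17 ± 0.07 (adjusted p = 0.187, edgeR).

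**Figure D4:**
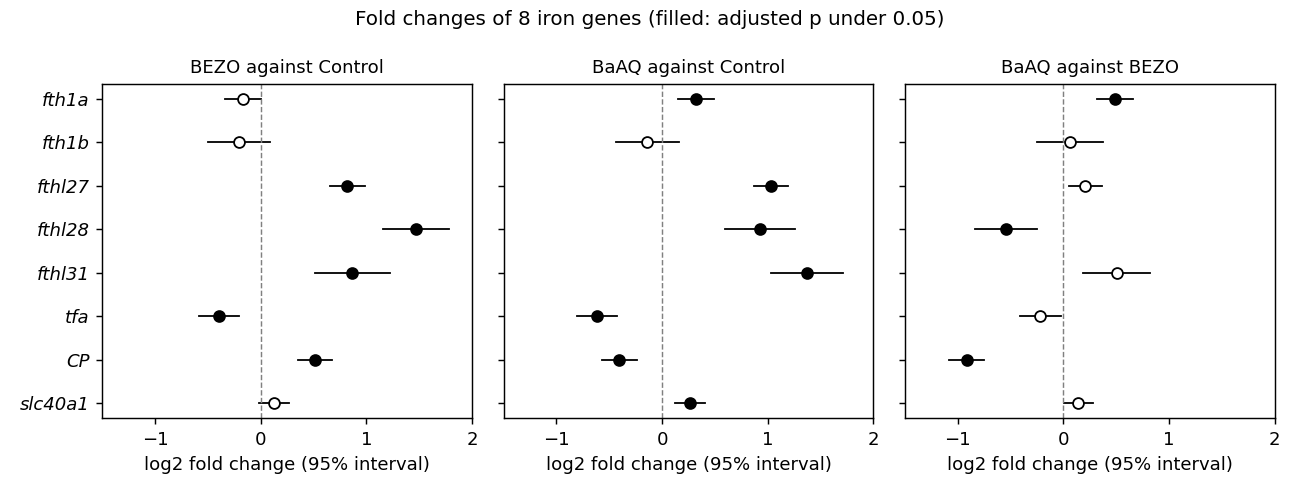
Log2 fold change (x axes) of the 8 tested iron genes (rows) in 3 comparisons, with 95% intervals as lines and filled points for an adjusted p under 0.05. CP lies at 0.51 in BEZO against Control, -0.41 in BaAQ against Control and -0.92 in BaAQ against BEZO.

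Other genes of the iron pathway were taken from prepared lists. Over 4 lists of uptake and transport, regulation, heme handling and iron-sulfur cluster genes, 45 of 57 listed symbols were matched. The 12 without a match, among them the hepcidin gene hamp, tmprss6, tfr2, slc39a14 and hpx, were not examined. The rest matched 45 genes, of which 40 were tested. In BaAQ against Control, 4 were higher and 2 lower, or 15% where 10.2% of all tested genes passed, with a median log2 fold change of 0.06. In BEZO against Control, 2 were higher and 0 lower, or 5% where 6.44% passed, with a median of -0.01. In BaAQ against BEZO, 0 were higher and 3 lower, or 7.5% where 4.84% passed. These shares are near the background and are not read as a result about the lists.

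Of 11 tested genes of iron regulation, 1 was lower in BaAQ than in Control, or 9.09% where 10.2% of all tested genes passed. None passed in BEZO against Control, where 6.44% of all tested genes passed. The gene ACO1, whose protein becomes an iron regulatory protein when iron is scarce, averaged 33.0 CPM in BaAQ, 31.6 CPM in BEZO and 28.5 CPM in Control and did not pass. The other iron regulatory protein gene, IREB2, averaged 46.1, 41.6 and 44.2 CPM in BaAQ, BEZO and Control and did not pass. The ferritin autophagy receptor gene ncoa4 averaged 109 CPM in BaAQ, 101 CPM in BEZO and 105 CPM in Control and did not pass either. The transcription factor gene EPAS1 (ENSDARG00000008697), the hypoxia-inducible factor linked to iron uptake, was lower in BaAQ by -0.26 ± 0.07 (adjusted p = 0.0302, edgeR), a call that ended without BaAQ 1, BaAQ 2, Control 1 or Control 3 and with library totals alone (adjusted p = 0.0941). The second EPAS1 gene (ENSDARG00000057671) was at 0.22 ± 0.15 in BaAQ (adjusted p = 0.418, edgeR).

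Among 9 tested uptake and transport genes, 1 passed in BaAQ against Control, or 11.1% where 10.2% of all tested genes passed. The only one to pass in any comparison was HEPH (ENSDARG00000026403), the gene of hephaestin, a membrane-bound relative of ceruloplasmin. It had 5.55, 4.93 and 5.63 CPM in BaAQ, 5.59, 11.4 and 11.7 CPM in BEZO, and 10.8, 15.6 and 12.6 CPM in Control. BaAQ lay below Control throughout, whereas the first BEZO library stood at the BaAQ level and the other two near Control. HEPH was lower in BaAQ than in Control by -1.34 ± 0.22 on the log2 scale (adjusted p = 0.0004, edgeR). It was at -0.51 ± 0.20 in BEZO against Control (adjusted p = 0.151, edgeR) and passed when genes of at least 1 read were kept (adjusted p = 0.0076). In BaAQ against BEZO it was at -0.83 ± 0.24 (adjusted p = 0.0463, edgeR), a call that ended in 7 of the 9 fits with a library left out and in the fit of only the 2 groups (adjusted p = 0.0658). The divalent metal importer gene slc11a2 averaged 4.98 CPM in BaAQ, 3.68 CPM in BEZO and 2.998 CPM in Control (BaAQ against Control, adjusted p = 0.0574, edgeR). The transferrin receptor gene tfr1b averaged 5.61, 5.29 and 5.84 CPM in BaAQ, BEZO and Control and did not pass.

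Heme handling genes included HMOX1, heme oxygenase, which releases iron from heme. It was at 25.3, 24.1 and 20.2 CPM in BaAQ, 27.8, 35.5 and 35.8 CPM in BEZO, and 15.3, 22.5 and 20.5 CPM in Control. BEZO lay above all other libraries, while BaAQ overlapped Control. HMOX1 rose by 0.71 ± 0.13 on the log2 scale in BEZO against Control (adjusted p = 0.00162, edgeR). In BaAQ against Control it was at 0.19 ± 0.14 (adjusted p = 0.45, edgeR), and in BaAQ against BEZO at -0.52 ± 0.13 (adjusted p = 0.0247, edgeR). The last call ended without BEZO 2, BEZO 3, BaAQ 2 or BaAQ 3. The heme transporter gene SLC48A1 (ENSDARG00000026907) averaged 2.71 CPM in BaAQ, 1.70 CPM in BEZO and 1.14 CPM in Control, and rose by 1.13 ± 0.28 in BaAQ against Control (adjusted p = 0.0119, edgeR). Its copy ENSDARG00000026109 did not pass in BaAQ (adjusted p = 0.551).

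Of 12 tested iron-sulfur cluster genes, 3 were higher in BaAQ than in Control, or 25% where 10.2% of all tested genes passed. In BEZO against Control 1 was higher, or 8.33% where 6.44% passed. ISCA1, an assembly factor of mitochondria, had 23.8, 22.8 and 21.2 CPM in BaAQ, 33.9, 28.2 and 36.0 CPM in BEZO, and 13.7, 15.3 and 14.1 CPM in Control. The 3 groups did not overlap, with BEZO highest, the order also seen for fthl28. ISCA1 rose by 0.59 ± 0.11 on the log2 scale in BaAQ (adjusted p = 0.000969) and by 1.14 ± 0.10 in BEZO (adjusted p = 3.57e-07, edgeR), and was lower in BaAQ than in BEZO by -0.55 ± 0.10 (adjusted p = 0.00213, edgeR). CIAPIN1, a factor of cytosolic cluster assembly, rose by 0.55 ± 0.09 in BaAQ (adjusted p = 0.00049, edgeR). The scaffold gene ISCU (ENSDARG00000035596) rose by 0.33 ± 0.08 in BaAQ (adjusted p = 0.00972, edgeR), a call that ended without Control 2 (adjusted p = 0.0533), and its copy ENSDARG00000026582 did not pass (adjusted p = 0.86).

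**Figure D5:**
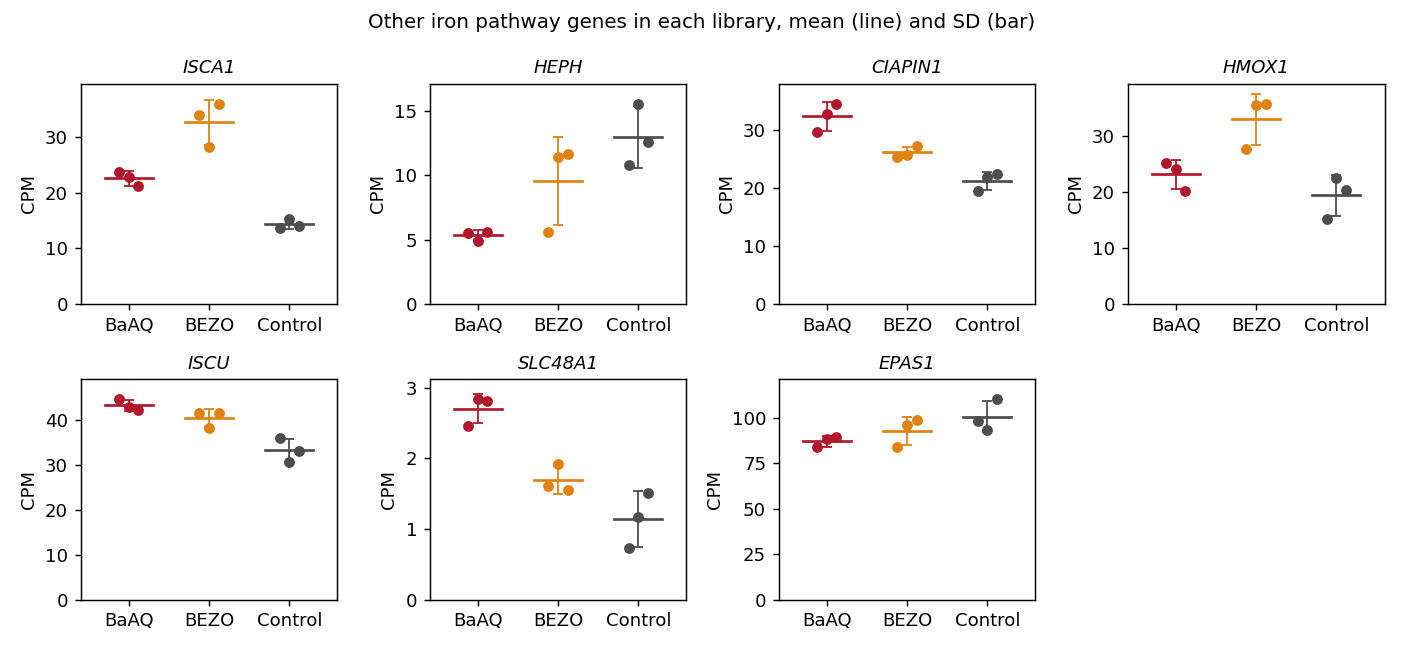
Level in CPM (y axes, each starting at 0) of the 7 other iron pathway genes that passed in at least 1 comparison, in the 3 BaAQ, 3 BEZO and 3 Control libraries; points are libraries, lines group means and bars the SD. HEPH lies at 4.93 to 5.63 CPM in BaAQ and 10.8 to 15.6 CPM in Control, and the first BEZO library sits with BaAQ at 5.59 CPM.

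Genes whose levels ran most like those of 3 members were sought among 11095 named genes of at least 5 CPM, by Pearson correlation of log2(CPM + 1) over the 9 libraries. Every correlation runs over the same 9 libraries in the same 3 groups and is given as a description. Nearest to fthl27 were si:ch211-225b11.1 (r = 0.99), PHLDA2 (r = 0.99), which averaged 21.7 CPM in BaAQ, 20.3 CPM in BEZO and 12.8 CPM in Control, and the carbonyl reductase gene cbr1l (r = 0.987), at 61.6, 42.0 and 17.4 CPM. Nearest to CP were PLOD1 (r = 0.98), a collagen lysyl hydroxylase gene, HNF4A (r = 0.979), a liver transcription factor gene, and ANGPTL4 (r = 0.967), a secreted inhibitor of lipoprotein lipase. HNF4A, which is also in the liver and yolk list, averaged 9.31 CPM in BaAQ, 14.1 CPM in BEZO and 10.8 CPM in Control. It passed against Control in neither BaAQ (adjusted p = 0.207, edgeR) nor BEZO (adjusted p = 0.0784, edgeR). In BaAQ against BEZO it was lower by -0.62 ± 0.12 on the log2 scale (adjusted p = 0.00423, edgeR). Whether HNF4A acts on CP was not tested. Nearest to tfa were defbl1 (r = 0.981), a defensin-like gene at 20.5, 26.8 and 40.1 CPM in BaAQ, BEZO and Control, and3 (r = 0.949), an actinodin gene of the fin fold, and RPA2 (r = 0.944), a replication protein gene.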

How the data were processed

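The 9 libraries were deposited as a table of whole-number counts, without normalization, with Ensembl identifiers. Tools in the submitters' processing notes are TopHat2, HTSeq, CASAVA 1.8, edgeR and FastQC, and the build is Zv9. The options, order and strand setting of these tools are not given in the sources used here. How reads of overlapping genes and of ferritin copies were assigned is therefore not known, and the sequences of the copies were not compared. Symbols came from reference gene tables by identifier, and a listed symbol without an exact match was searched without its final letter. Counts were filtered with filterByExpr, scaled with TMM and fitted with edgeR 4.0.16 in R 4.3.3 (quasi-likelihood, 3 group means, 6 residual degrees of freedom, 18860 genes tested, common biological coefficient of variation 7.23%). Standard errors and 95% intervals derive from the F statistics. The fit was tested on simulated data in which every gene had the same spread, so genes of wider spread are not covered by it. Alternatives were DESeq2 1.42.0, other scalings and filters, a block for the replicate number, fits of only the groups compared, a threshold of 0.01 and each library left out. Members, lists and rules were chosen with earlier results of these data known. Named by rule were all members, the pathway genes passing in at least 1 comparison, the 3 nearest by correlation for fthl27, CP and tfa, and up to 4 markers a list by smallest p. Further genes were named outside this rule, among them ACO1, IREB2, ncoa4, slc11a2, tfr1b, hbae3, hbbe3, PRDX1, keap1a and nfe2l2b. A floor of 3 reads equals 0.208 to 0.370 CPM, depending on the library, and reflects counting error alone. Nothing ties replicate numbers to spawning days. Figures were made with Python 3.11.15 and matplotlib 3.10.9.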

Additional observations from a re-analysis of the deposited data

Results flagged for a closer look

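For 3 of the iron genes the effect of BaAQ differed from that of BEZO against the same Control, as tested by the direct comparison of BaAQ with BEZO (edgeR, adjusted over all genes). Of all tested genes, 4.84% passed in that comparison. The log2 fold change BaAQ over BEZO was 0.49 for fth1a, -0.54 for fthl28 and -0.92 for CP. The fthl28 call ended in 6 of 17 alternatives, whereas those of fth1a and CP held in all 17.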

How the results depend on the processing

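Of 24 pairs of a tested iron gene and a comparison, 15 kept their direction and their side of the threshold in each of the 17 alternatives that count ferritin genes apart; the other 9 are named with their values in the report or here. The 6 ferritin genes taken as 1 row gave 0.00 in BEZO against Control, in place of the rises of fthl27, fthl28 and fthl31 apart, and 0.423 in BaAQ against Control and BaAQ against BEZO, in place of the estimates of fth1b and fthl28; fth1a holds 76.2 to 88.0% of the summed reads. That sum in BEZO against Control had no direction, at 0 with DESeq2 and with a mean of at least 1 CPM, 0.001 with DESeq2 size factors, 0.039 with library totals, 0.003 with only the 2 groups compared, and -0.098 to 0.057 with a library left out. For fth1b, BaAQ against BEZO was -0.041 to 0.159 with a library left out. With genes of at least 1 read, 1389 genes and 5 iron genes passed in BaAQ against BEZO. Added were fthl31, at 0.499 (adjusted p = 0.0215, edgeR), and tfa, at -0.221 (adjusted p = 0.0231, edgeR). At an adjusted p under 0.01, 620 genes passed in BEZO against Control, 978 in BaAQ against Control and 409 in BaAQ against BEZO, with 1 other iron gene in the last. With library totals 4 other iron genes passed in BEZO against Control. With a library left out, the genes passing were 761 to 1502 in BEZO against Control, 1276 to 1992 in BaAQ against Control and 531 to 883 in BaAQ against BEZO. The iron genes passing in BaAQ against BEZO were then 2 to 5, and the other iron genes 1 to 3, or 2 to 4 in BEZO against Control. Over all tested genes, same-numbered libraries did not deviate together (correlations -0.036 to 0.029). A correlation over all genes cannot show whether some genes shared an effect of the number. With the replicate block the ferritin sum in BEZO against Control was 0.005. The cause of these shifts was not tested. Depth limits fthl30.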
